A study of Mus musculus with 8 samples.

Results

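The unfolded protein response and the chaperones of the endoplasmic reticulum (ER) were followed across 8 RNA-seq libraries of mouse islets. The 32 genes examined were chosen by symbol, for their known place in the pathway, out of the 24091 genes of the deposited count table, and all 32 had enough counts to be among the 15233 genes tested. Of the 8 libraries 4 came from Itgb1 mutant islets and 4 from control islets. The mutants carried Ngn3-Cre and lost both copies of Itgb1, which encodes the integrin β1 subunit, from the endocrine progenitors onwards (Itgb1 ΔEndo/ΔEndo), and the controls were labelled wild-type. All mice had the C57BL/6 background and were 6 weeks old, and islets were freed with collagenase and left overnight in medium before RNA was taken from a small batch of them. Ngn3-Cre is active in the endocrine lineage, so blood vessel, stromal and leukocyte cells within an islet kept the gene. The design names 4 biological replicates per genotype without linking libraries to single animals, so p-values measure the spread between libraries. In bulk RNA, fewer cells of a type and less RNA per cell cannot be told apart.

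The ER folds secreted and membrane proteins, and β-cells, which make proinsulin in bulk, depend on it heavily. When unfolded proteins build up there, 3 sensors in the ER membrane respond: ATF6 is cut to release a transcription factor, IRE1 (Ern1) splices Xbp1 mRNA, and PERK (Eif2ak3) phosphorylates eIF2α, which lowers translation in general but raises that of ATF4. ATF6 and XBP1 drive chaperones and the machinery of ER-associated degradation (ERAD), and ATF4 drives amino acid and stress genes, Ddit3 (CHOP) among them. The genes were therefore read as 3 sensors, 13 chaperones and folding enzymes, 10 genes of the IRE1-XBP1 and ERAD arm, and 6 genes of the PERK-ATF4 arm. The splicing of Xbp1, the cutting of ATF6 and the phosphorylation of PERK are not visible in counts per gene.

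The DNA upstream of these genes was searched for the letters of known elements of the response. Of the 32 genes, 28 had an entry in the RefSeq promoter table (GRCm38.p6, 250 bases before to 50 bases after the start of the gene), and Atf6, Manf, Hyou1 and Derl1 did not. The ER stress response element (ERSE: CCAAT, then 9 bases of any kind, then CCACG), known to bind NF-Y and ATF6, was searched on both strands and matched in 9 of the 28, or 32.1%, against 0.137% of the 27025 genes with a promoter in the table. The matches lay in 7 of 11 chaperone promoters (Calr, Canx, Creld2, Dnajc3, Hsp90b1, Hspa5 and Pdia6) and in 2 of 9 promoters of the IRE1 and ERAD arm (Derl3 and Syvn1), with 0 of 6 in the PERK arm and 0 of 2 among the sensors. The related ERSE-II (ATTGG, then 1 base of any kind, then CCACG) matched in Dnajb11 and Herpud1, and in 0.0444% of all genes. In a wider list of pathway genes, described below, 0 of 65 promoters had an ERSE match and 0 of 65 an ERSE-II match. The following stretches of RefSeq sequence, read 5′ to 3′ on the strand of the gene and ending upstream of its start, show the ERSE in capitals for Hspa5 and Hsp90b1, the most abundant chaperones here, and for Derl3 and Syvn1, ERAD genes whose levels vary widely below. CCAAT first is the forward match, and CGTGG first is the match on the other strand.
Hspa5: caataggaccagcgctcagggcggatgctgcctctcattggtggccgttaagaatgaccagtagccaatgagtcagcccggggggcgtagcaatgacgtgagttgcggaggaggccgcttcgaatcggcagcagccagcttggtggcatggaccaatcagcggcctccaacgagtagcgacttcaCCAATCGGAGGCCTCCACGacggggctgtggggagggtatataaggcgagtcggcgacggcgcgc
Hsp90b1: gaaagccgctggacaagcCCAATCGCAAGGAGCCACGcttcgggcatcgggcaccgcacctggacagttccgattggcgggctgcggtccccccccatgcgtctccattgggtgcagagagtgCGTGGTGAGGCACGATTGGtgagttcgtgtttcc
Derl3: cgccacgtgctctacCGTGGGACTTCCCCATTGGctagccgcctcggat
Syvn1: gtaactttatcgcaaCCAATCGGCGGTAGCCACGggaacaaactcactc
The Hspa5 stretch lies at chr2:34771840-34772089 on the plus strand, and that of Hsp90b1, with 1 match on each strand, at chr10:86705518-86705674 on the minus strand. Derl3 is shown at chr10:75893227-75893275 on the plus strand and Syvn1 at chr19:6046517-6046565 on the plus strand.

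Some promoters of the PERK arm carry other letters. The C/EBP-ATF element, which ATF4 binds together with a C/EBP partner, was searched on both strands as TTGCATCA and in the looser form TGATGNAAN, which includes the first on its reverse strand. TTGCATCA matched in Chac1 and Herpud1 and in 1.03% of all genes, and TGATGNAAN in Asns, Chac1, Trib3 and Herpud1 and in 4.5% of all genes. Within the PERK arm these were 1 of 6 promoters for TTGCATCA and 3 of 6 for TGATGNAAN. Atf4, Ddit3 and Ppp1r15a had neither form. No ERSE or ERSE-II match lay in the 6 promoters of the PERK arm, and TGACGTGG, the site known as UPRE, matched in 0 of the 28 promoters and 0.714% of all genes. UPRE matched in 4 of 65 promoters of the wider list, or 6.15%. In the next stretches the capitals mark TTGCATCA in Chac1, the TGATGNAAN match in Asns, and in Herpud1 both TTGCATCA and, further on, ERSE-II.
Chac1: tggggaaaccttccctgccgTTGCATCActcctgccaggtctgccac
Asns: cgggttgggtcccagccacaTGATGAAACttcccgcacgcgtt
Herpud1: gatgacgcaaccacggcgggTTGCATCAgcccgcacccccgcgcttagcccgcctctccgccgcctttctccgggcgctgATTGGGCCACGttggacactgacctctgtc
Chac1 is shown at chr2:119351029-119351075 on the plus strand, Asns at chr6:7693210-7693252 on the minus strand and Herpud1 at chr8:94386297-94386406 on the plus strand. A match is a run of letters and not evidence of binding, and other forms of these elements were not searched.

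Library facts touch every value that follows. Levels are CPM, the counts of a gene per 1 M counts of its library with TMM factors applied, and totals ran from 35.1 to 67.6 M counts per library. Control 2, control 3 and mutant 3 had at least 62.2 M counts each and the other 5 at most 41 M, a division in depth at 50 M counts that the labels do not mention. Itgb1 itself averaged 235 CPM in mutant islets, with 193 CPM the lowest and 266 CPM the highest library, and 394 CPM in control islets, with 315 CPM the lowest and 432 CPM the highest, so the groups did not overlap (log2 fold change −0.75, edgeR adjusted p = 0.256). Markers of β-cells summed to 31832 to 49586 CPM in the 4 mutant libraries, against 32598 and 34269 CPM in controls 1 and 4 and 121340 and 174170 CPM in controls 2 and 3. Acinar markers summed to 146 to 928 CPM in mutants, against 64.8 and 385 CPM in controls 1 and 4 and 4094 and 12357 CPM in controls 2 and 3, with Amy2a5 at 0 in all 8 libraries. Markers of α-cells summed to 10444 to 20137 CPM in mutants, against 22498 and 19263 CPM in controls 1 and 4 and 41620 and 92825 CPM in controls 2 and 3. Controls 2 and 3 therefore stood apart from the other 6 libraries in each of these marker sums. Xist was at 1225 CPM in mutant 3 and 1125 CPM in control 3 and below 1 CPM elsewhere, so those 2 libraries hold RNA of females.

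The genes of the ER followed the same division. Controls 2 and 3 were both above the other 6 libraries for 27 of the 32 genes, against 20.1% of all genes tested, and the exceptions were Ern1, Edem1, Derl1, Trib3 and Asns. This held for 13 of 13 chaperones, 8 of 10 genes of the IRE1 and ERAD arm, 4 of 6 of the PERK arm and 2 of 3 sensors. TMM factors were 0.867 in control 2, 0.779 in control 3 and 1.05 to 1.10 in the other 6 libraries. A factor below 1 raises CPM, so with total counts only the ratios that follow would be smaller. The count of 27 could then be the same or lower, and neither was repeated that way. Set against controls 1 and 4, the controls of under 50 M counts, the mean of controls 2 and 3, those of over 50 M, was 2.38 times as high for the median chaperone, 2.05 times for the median gene of the IRE1 and ERAD arm, 1.84 times for the median gene of the PERK arm and 1.40 times for the median sensor. At the median gene the 6 other libraries were close to each other, with the highest over the lowest at 1.24 for chaperones, 1.26 for either downstream arm and 1.10 for sensors. Single genes spread more, up to 1.51 for chaperones, 4.45 (Derl3) for the IRE1 and ERAD arm, 1.59 for the PERK arm and 1.18 for sensors. Mutant 3, sequenced as deeply as controls 2 and 3, was among these 6.

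**Figure D1:**
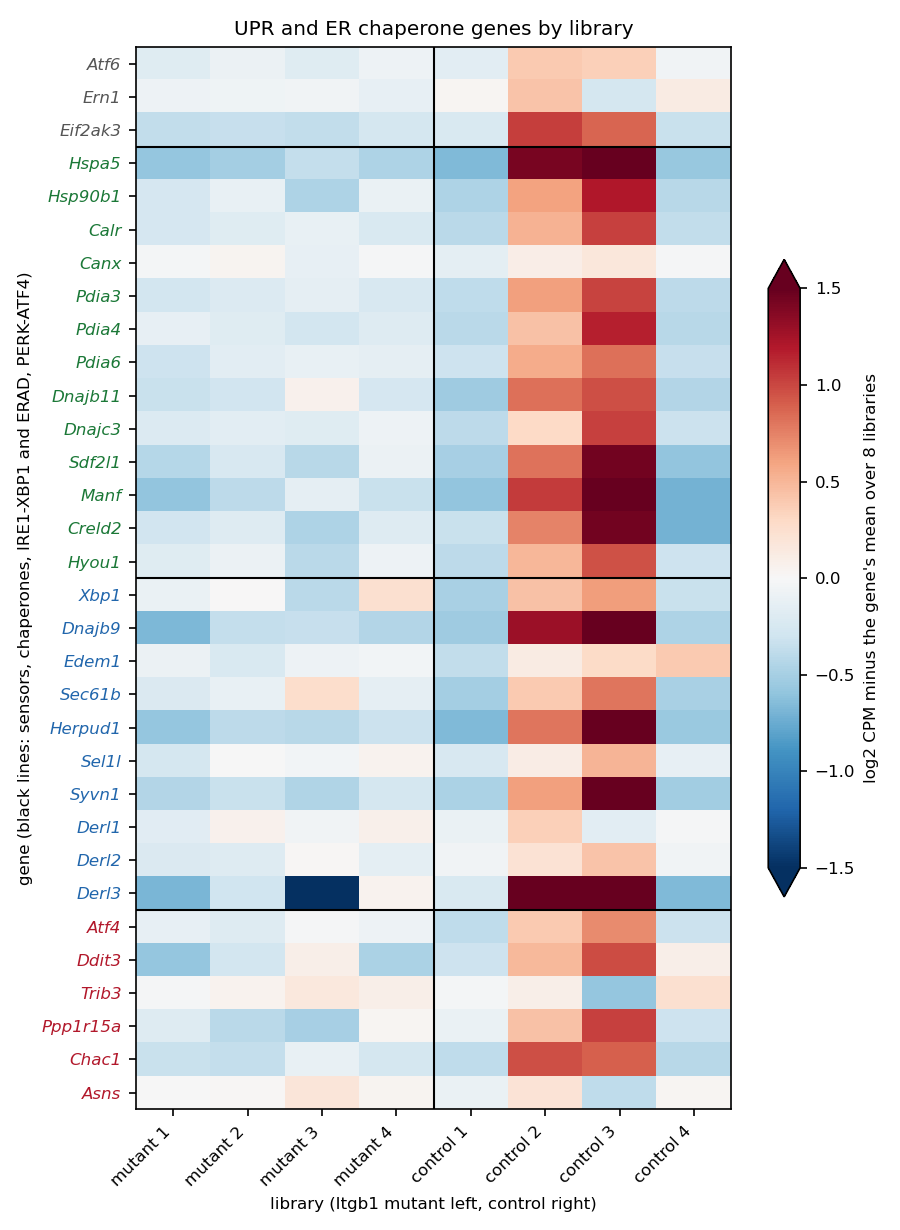
Each row is 1 of the 32 genes and each column 1 library, with the 4 Itgb1 mutant libraries left of the 4 control libraries, and color gives log2 CPM minus the mean of the gene over the 8 libraries (red higher, blue lower, saturated at the ends of the color bar). Controls 2 and 3 are the red columns, both above the other 6 libraries for 27 of 32 genes.

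Over all 8 libraries, 30 of the 32 genes had a lower level in mutant than in control islets (25 of 32 when libraries were scaled by total counts only), against 49.8% of all genes tested. The median log2 fold change was −0.53, and single genes lay between −1.77 for Derl3 and 0.11 for Trib3. Scaling by total counts alone moved the median of all genes to 0.15, and that of the 32 genes was then −0.29. None of the 32 genes, and 0 of 15233 genes in all, reached an adjusted p below 0.05 with edgeR (for the 32 genes, the smallest was 0.353). DESeq2 called 0 of the 32 as well, beside 1.21% of all genes as higher and 0.834% as lower. The paper, which corrected for batches, reports genes called in this comparison at an adjusted p below 0.05 with over 2-fold change. The fits here had no batch term. At an unadjusted p below 0.05 edgeR gave 6 of the 32 as lower, or 18.8%, against 6.89% of all genes tested, and 0 as higher, against 6.40%. The 6 were Eif2ak3, Hspa5, Dnajb9, Herpud1, Derl3 and Ddit3. DESeq2 gave 12 as lower and 0 as higher at the same unadjusted threshold, against 8.72% and 8.02% of all genes. The edgeR count rested on single libraries, with 21 lower without control 1, 16 without control 4, 0 without control 2, 1 without control 3, and 0, 1, 2 and 1 without mutants 1 to 4, and with 0 higher each time. The share of all genes lower at that p was 9.80% without control 1, 9.94% without control 4, 3.89% without control 2 and 4.23% without control 3, and 3.67% to 7.94% with a mutant left out. For 0 of the 32 genes did the 4 mutants all lie above or all below the 4 controls, against 4.40% of all genes above and 3.80% below.

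The group difference turned on which controls were compared. With the 5 libraries of under 50 M counts, 3 mutants against controls 1 and 4, 25 of the 32 genes were higher in mutants (23 of 32 with total counts only), against 50.4% of all genes in that fit, and the median log2 fold change was 0.13. At an unadjusted p below 0.05, 9 were higher, or 28.1%, against 12.7% of all genes, and 2 were lower, or 6.25%, against 10.6%, while 0 of the 32 passed an adjusted p below 0.05 in edgeR, against 0.0770% of all genes as higher and 0.0577% as lower. All 3 mutants lay above both controls for 15 genes, or 46.9%, against 21.7% of all genes, and below both for 2, or 6.25%, against 21.5%. Within the 3 libraries of over 50 M counts, mutant 3 against controls 2 and 3, 30 of the 32 were lower and the median log2 fold change was −0.91, a value with no test. The median thus had opposite signs on the 2 sides of the division, a difference that was not tested. Without controls 2 and 3, a choice made after their values were seen, 23 of 32 were higher, with a median of 0.14, 3 of them (Pdia4, Sec61b and Atf4) at an unadjusted p below 0.05, against 4.35% of all genes, and 0 were lower at that p, against 3.88%. With all 8 libraries and a term for the division, 29 of 32 were lower, the median was −0.22, and Ddit3 and Derl2 were lower at an unadjusted p below 0.05, against 6.21% of all genes, with 0 of the 32 higher, against 8.30%. Controls 2 and 3 differed from controls 1 and 4 in depth and in marker sums at once, and the part of each cannot be told apart. Mutant 3 shared their depth but not their marker sums, and as it also differed in genotype it cannot separate these parts. By Xist, control 3 and mutant 3 were female and control 2 was not.

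**Figure D2:**
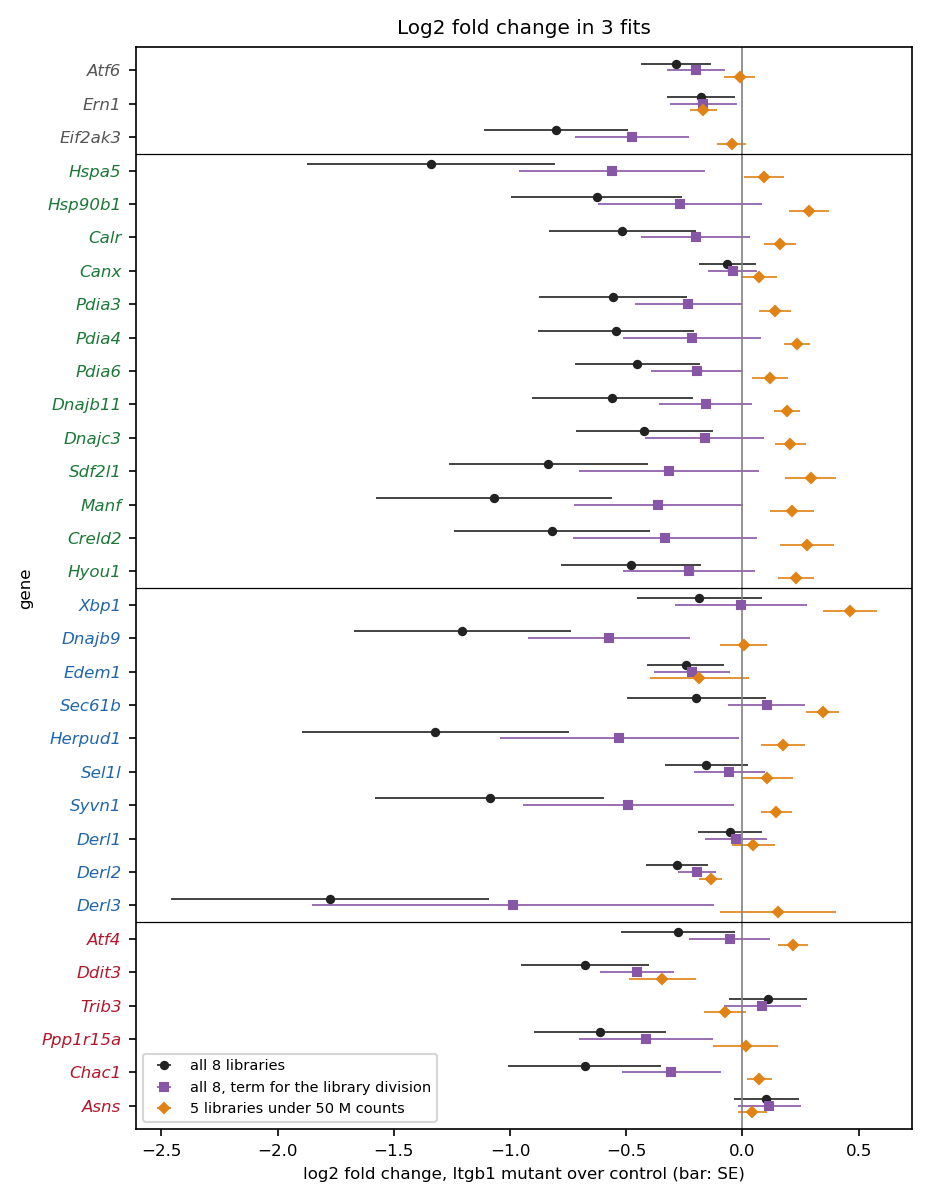
The log2 fold change of each gene, Itgb1 mutant over control, with its SE as a bar, is plotted for the fit of all 8 libraries (black circles), the same with a term for the library division (purple squares), and the 5 libraries of under 50 M counts (orange diamonds). Black circles lie left of 0 for 30 of 32 genes and orange diamonds right of 0 for 25 of 32.

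The sensors stand first in the pathway. Atf6, whose product is cleaved in the Golgi to give a transcription factor, had 281, 300, 280 and 301 CPM in mutants 1 to 4, against 284, 418, 408 and 307 CPM in controls 1 to 4. The mutants spanned a narrow band, and in these CPM controls 2 and 3 were above it (log2 fold change −0.29, SE 0.15, edgeR adjusted p = 0.418). With total counts only the log2 fold change of Atf6 was −0.10 (SE 0.11). Ern1, which encodes the kinase and RNase IRE1, had 259, 261, 264 and 252 CPM in mutants, against 279, 367, 229 and 298 CPM in controls. Here control 3 was the lowest of all 8 libraries and control 2 the highest, so this sensor broke with the division. In the 5 less deeply sequenced libraries all 3 mutants were below both controls for Ern1, by 0.17 on the log2 scale (SE 0.06, unadjusted p = 0.0277 and adjusted p = 0.169 in edgeR). Eif2ak3, which encodes PERK, had 126, 128, 127 and 136 CPM in mutants, against 139, 335, 298 and 129 CPM in controls. In CPM with TMM factors, controls 2 and 3 had over 2 times the level of every other library. The log2 fold change of Eif2ak3 was −0.80 (SE 0.31, unadjusted p = 0.0301, adjusted p = 0.353, edgeR) over all 8 libraries and −0.05 (SE 0.06) in the 5. With total counts only it was −0.57 (SE 0.23) over all 8.

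Of the chaperones, Hspa5 (BiP or GRP78), the ER Hsp70 that holds the sensors inactive and is the classical readout of the response, stood apart most. It had 2022, 2127, 2366 and 2187 CPM in mutants, against 1919, 8095, 9960 and 2032 CPM in controls. The mutants matched controls 1 and 4 closely, and controls 2 and 3 were 4.57 times as high as those 2. The mean was 2176 ± 144 CPM in mutants and 5502 ± 4143 CPM in controls (SD, n = 4 each). Its log2 fold change over all 8 was −1.34 (SE 0.53, unadjusted p = 0.0344, adjusted p = 0.357, edgeR), and 0.09 (SE 0.09) in the 5 libraries. Per kilobase of transcript it had the highest level of the 32 genes, 834 CPM per kb in mutants and 2110 CPM per kb in controls.

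Manf encodes a small secreted ER protein that protects β-cells from ER stress. It had 180, 206, 247 and 215 CPM in mutants, against 179, 561, 874 and 165 CPM in controls. The 4 mutants were at or above the level of controls 1 and 4, and far below controls 2 and 3 (log2 fold change −1.07, SE 0.51, edgeR adjusted p = 0.391). Hsp90b1 (GRP94), the Hsp90 of the ER, had 1729, 1894, 1487 and 1922 CPM in mutants, against 1484, 3117, 4727 and 1537 CPM in controls. Mutant 3 was level with controls 1 and 4, and the other mutants were above those 2 (log2 fold change 0.29, SE 0.09, unadjusted p = 0.0183 in the 5 libraries, and −0.63, SE 0.37, in all 8). Sdf2l1, a partner of the BiP cofactor Dnajb11, had 92.4, 106, 93.3 and 118 CPM in mutants, against 88.6, 220, 338 and 82.5 CPM in controls. Its mutants were all above controls 1 and 4, with a log2 fold change of 0.29 (SE 0.11, unadjusted p = 0.0372, edgeR) in the 5 libraries and −0.83 (SE 0.43) in all 8.

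The other 9 chaperones ran the same way. They were the lectin chaperones Calr and Canx, the disulfide isomerases Pdia3, Pdia4 and Pdia6, the J-domain cochaperones Dnajb11 and Dnajc3, the disulfide isomerase family protein Creld2, and Hyou1, a large Hsp70 relative that exchanges nucleotide on BiP. Their log2 fold changes over all 8 libraries lay between −0.82 for Creld2 and −0.06 for Canx, and in the 5 libraries between 0.07 for Canx and 0.28 for Creld2. The group as a whole was lower in 13 of 13 over all 8 libraries (12 of 13 with total counts only, where Canx was at 0.10), with a median of −0.56, and higher in 13 of 13 in the 5 libraries, with a median of 0.21. Within the 5, all 3 mutants were above both controls for 10 of 13 chaperones, against 21.7% of all genes, the others being Hspa5, Canx and Pdia6. Hsp90b1, Pdia4, Dnajb11, Dnajc3, Sdf2l1 and Hyou1, or 46.2% of the chaperones, had an unadjusted p below 0.05, against 12.7% of all genes. These differences were small, at most 0.29 on the log2 scale, and the smallest adjusted p among them was 0.111 in edgeR. Summed over the 13, chaperone transcripts took 9742, 10340, 9975 and 10393 CPM in mutants, against 8852, 21099, 28138 and 9148 CPM in controls.

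**Figure D3:**
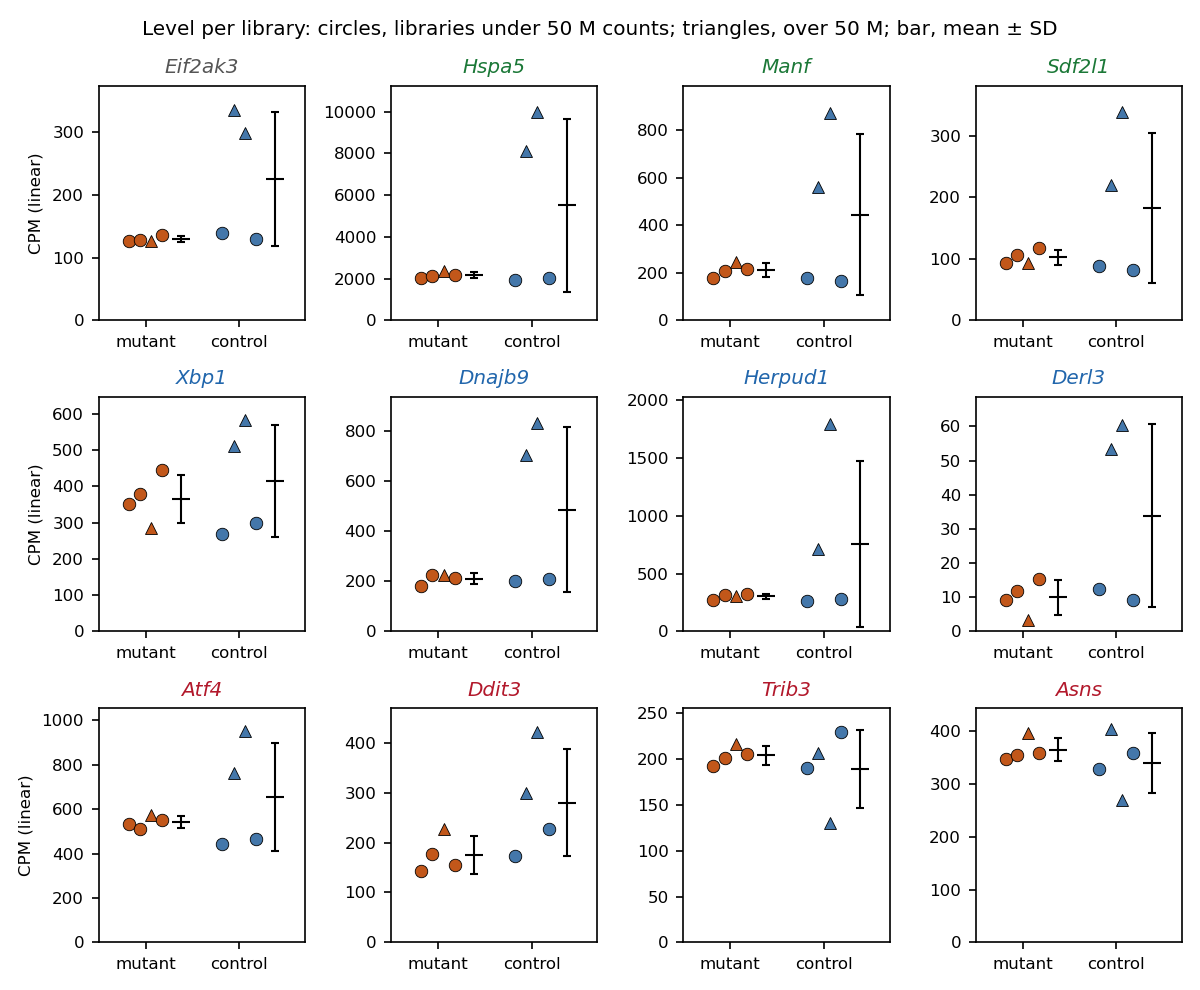
CPM on a linear axis is plotted per library for 12 genes of the 4 groups, with Itgb1 mutant libraries (orange) left of control libraries (blue), circles for libraries of under 50 M counts, triangles for those over 50 M, and a bar for the mean ± SD (n = 4). For Hspa5 the 2 blue triangles are at 8095 and 9960 CPM, and the orange triangle, mutant 3, is at 2366 CPM among the circles.

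In the IRE1 and ERAD arm, Xbp1, the transcription factor whose mRNA IRE1 splices, had 352, 380, 285 and 445 CPM in mutants, against 270, 511, 583 and 298 CPM in controls. Mutants 1, 2 and 4 were above controls 1 and 4, by 0.46 on the log2 scale (SE 0.12, unadjusted p = 0.00778 and adjusted p = 0.115 in edgeR), and mutant 3 was the lowest mutant, below control 4. Over all 8 libraries the log2 fold change was −0.18 (SE 0.27). Dnajb9 (ERdj4), a J protein and a target of XBP1, had 181, 225, 227 and 212 CPM in mutants, against 200, 704, 834 and 209 CPM in controls. The 6 libraries other than controls 2 and 3 were alike, and the log2 fold change was −1.21 (SE 0.47, unadjusted p = 0.0301, edgeR) in all 8 and 0.01 (SE 0.10) in the 5. Herpud1, a membrane protein that organizes the ERAD complex, had 272, 311, 305 and 327 CPM in mutants, against 259, 713, 1787 and 277 CPM in controls. Control 3 alone had over 2 times the level of control 2, a wider gap between these 2 than for Hspa5 (log2 fold change −1.32, SE 0.58, edgeR adjusted p = 0.373).

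Derl3, a derlin of the retrotranslocation channel, had the lowest level per kilobase in mutants and the largest log2 fold change in size. It had 9.13, 12.0, 3.43 and 15.3 CPM in mutants, against 12.5, 53.4, 60.5 and 9.25 CPM in controls. Mutant 3 was the lowest library and controls 2 and 3 the highest, so the 3 deeply sequenced libraries held both ends of its range. The log2 fold change was −1.77 (SE 0.68, unadjusted p = 0.0301, adjusted p = 0.353, edgeR) over all 8 libraries and 0.15 (SE 0.25) in the 5. The related Derl1 and Derl2 varied far less, at −0.05 and −0.28 on the log2 scale in the fit of all 8. Derl2 was lower in each of the 3 mutants than in both controls of the 5, by 0.14 on the log2 scale (SE 0.05, unadjusted p = 0.0337, edgeR).

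Of the remaining ERAD genes, the ubiquitin ligase Syvn1 (HRD1) was at 84.5 ± 5.13 CPM in mutants and 180 ± 150 CPM in controls (SD, n = 4 each), with control 3 at 396 CPM. Its scaffold Sel1l and the mannosidase-like Edem1 were nearer to even, at log2 fold changes of −0.16 and −0.24. Sec61b, a subunit of the translocon, had 41.2, 44.5, 57.6 and 43.9 CPM in mutants, against 33.6, 63.2, 83.8 and 34.2 CPM in controls. All 4 mutants were above controls 1 and 4 and, mutant 3 included, below controls 2 and 3. Its difference in the 5 libraries, 0.34 on the log2 scale (SE 0.07, unadjusted p = 0.00281), had the smallest adjusted p of the 32 genes there, 0.0935 in edgeR. The arm as a whole was lower in 10 of 10 genes over all 8 libraries (6 of 10 with total counts only, where Xbp1, Sec61b, Sel1l and Derl1 were above 0), with a median of −0.26, and higher in 8 of 10 in the 5 libraries, with a median of 0.13.

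In the PERK-ATF4 arm 4 genes were lower and 2 higher over all 8 libraries, where every gene of the other groups was lower. With total counts only, the chaperones and the IRE1 and ERAD arm had genes of both signs too. Log2 fold changes over all 8 spread from −1.77 to −0.05 in the IRE1 and ERAD arm and less widely, from −0.68 to 0.11, in the PERK arm. Atf4, its transcription factor, had 534, 509, 574 and 549 CPM in mutants, against 445, 763, 950 and 465 CPM in controls. All 4 mutants were above controls 1 and 4 and below controls 2 and 3, with a log2 fold change of 0.22 (SE 0.07, unadjusted p = 0.0177, edgeR) in the 5 libraries and −0.28 (SE 0.25) in all 8. Since ATF4 is controlled mainly at translation, its mRNA is an incomplete readout of the arm. Ddit3, which encodes CHOP, a factor known for driving cell death under lasting ER stress, had 143, 176, 227 and 154 CPM in mutants, against 172, 299, 420 and 227 CPM in controls. Mutant 3 was the highest mutant and level with control 4, and controls 2 and 3 were above all mutants (log2 fold change −0.68, SE 0.28, unadjusted p = 0.0373, adjusted p = 0.362, edgeR). Ddit3 stayed below 0 within either set of libraries, at −0.35 (SE 0.14, unadjusted p = 0.0542, edgeR) in the 5 and −0.64 in the 3, and at −0.46 (SE 0.16, unadjusted p = 0.0226, edgeR) with a term for the division. Without controls 2 and 3 its log2 fold change was smaller in size, at −0.19 (SE 0.22, unadjusted p = 0.417, edgeR).

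Ppp1r15a (GADD34), the phosphatase subunit that reverses eIF2α phosphorylation, had 183, 157, 148 and 214 CPM in mutants, against 195, 283, 425 and 169 CPM in controls. The mutants surrounded controls 1 and 4, and controls 2 and 3 were above all of them (log2 fold change −0.61, SE 0.28, edgeR adjusted p = 0.387). Chac1, an enzyme that degrades glutathione downstream of ATF4, had 81.9, 80.5, 95.6 and 85.9 CPM in mutants, against 79.1, 202, 192 and 77.7 CPM in controls. Its log2 fold change was −0.68 (SE 0.33, edgeR adjusted p = 0.397) over all 8 libraries and 0.07 (SE 0.05) in the 5. Trib3 and Asns, 2 further ATF4 targets that encode a pseudokinase and asparagine synthetase, did not follow. Trib3 had 192, 202, 216 and 206 CPM in mutants, against 191, 207, 130 and 230 CPM in controls. Asns had 348, 356, 397 and 360 CPM in mutants, against 328, 405, 270 and 358 CPM in controls. For both, control 3 was the lowest of the 8 libraries, where it was the highest for most of the other genes. Over the arm, 4 of 6 genes were lower over all 8 libraries, with a median of −0.44, and 4 of 6 were higher in the 5 (3 of 6 with total counts only), with a median of 0.03.

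Branches were then set against each other within a library, which cancels any scale factor of the library. For each gene the mean log2 CPM over the 8 libraries was subtracted, and the median over the genes of an arm was taken per library. Controls 2 and 3 raise that mean, most for chaperones. The signs below are relative to it and not independent of the ratios given above. The median of the PERK arm minus that of the chaperones was 0.12, −0.05, 0.21 and 0.18 in mutants 1 to 4, against 0.20, −0.19, −0.22 and 0.28 in controls 1 to 4. All 4 mutants lay above controls 2 and 3, and mutant 3 was just above control 1, so the groups overlapped. The chaperones were ahead of the PERK arm in controls 2 and 3 and, by less, in mutant 2. The IRE1 and ERAD arm minus the chaperones was 0.03, −0.03, −0.04 and 0.11 in mutants, against −0.02, −0.18, −0.31 and 0.01 in controls. The chaperones were thus ahead of this arm too in the 2 controls with the highest levels. In the mutants the 3 arms were within 0.25 of each other, and in controls 1 and 4 within 0.28.

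**Figure D4:**
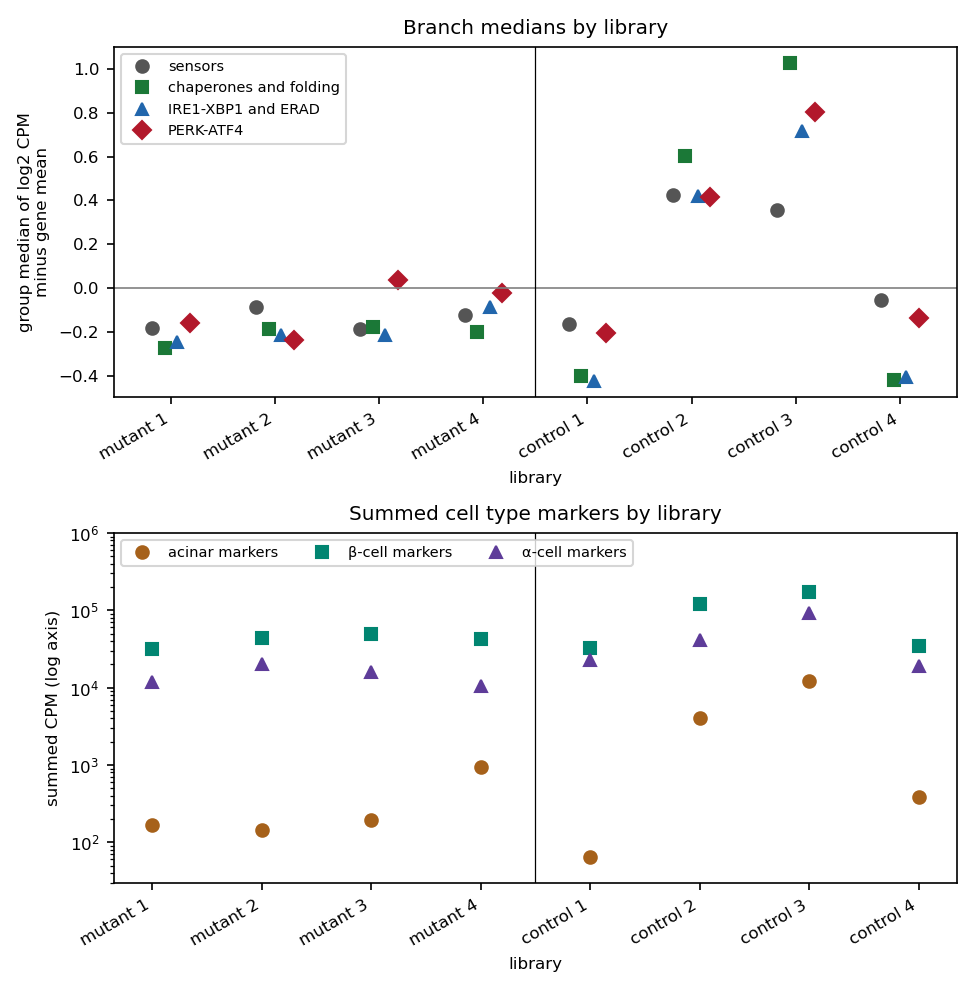
The upper panel gives, per library, the median over the genes of each group of log2 CPM minus the gene mean, and the lower panel the summed CPM of acinar, β-cell and α-cell markers on a log axis, with Itgb1 mutant libraries left of controls. Chaperones reach 0.60 and 1.03 in controls 2 and 3, where acinar markers sum to 4094 and 12357 CPM.

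Other genes of the pathway gave a mixed picture. A wider list of 86 genes of folding, translocation, ERAD, ATF4 targets and regulators was written from knowledge of the pathway, and 84 of them were tested. Over all 8 libraries 35 were higher and 49 lower in mutants (54 and 30 with total counts only), with a median log2 fold change of −0.09 beside 0.00 over all genes tested. At an unadjusted p below 0.05 edgeR gave 4 higher (4.76%, against 6.40% of all genes) and 7 lower (8.33%, against 6.89%), and 0 passed the adjusted threshold, while DESeq2 gave an adjusted p below 0.05 for Ero1lb and Bbc3. In the 5 libraries 60 were higher, or 71.4%, against 50.4% of all genes. At an unadjusted p below 0.05, 25 of them were higher there, or 29.8%, against 12.7% of all genes, and 2 were lower, or 2.38%, against 10.6%. Of the 24 further genes of ERAD and translocation, 22 were lower over all 8 libraries (13 with total counts only) and 18 higher in the 5. Of the 19 further folding genes tested, 11 were lower over all 8 libraries (8 with total counts only) and 16 higher in the 5. Of the 25 further ATF4 targets, 17 were higher over all 8 libraries (21 with total counts only) and 17 in the 5.

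The 4 genes of that list with the smallest p had an edgeR adjusted p of 0.353 each. They were picked by p over these same 8 libraries, so groups that do not overlap add no separate support. Of all genes tested, 3.80% had all mutants below all controls and 4.40% all above. Ero1lb, the β-cell form of the oxidase that drives disulfide bonds in proinsulin, had 350, 507, 469 and 465 CPM in mutants, against 584, 2568, 2799 and 551 CPM in controls. All mutants were below all controls, with a log2 fold change of −1.86 (SE 0.55, unadjusted p = 0.00867) over all 8 libraries and −0.37 in the 5. Bbc3 (PUMA), a cell death gene downstream of p53 and CHOP, was at 6.93 ± 0.63 CPM in mutants and 9.87 ± 0.94 CPM in controls (SD, n = 4 each). Its groups did not overlap either, and its log2 fold change was near −0.5 in each fit (−0.51 in all 8, −0.58 in the 5 and −0.49 with a term for the division). Ddit4 (REDD1), an inhibitor of mTORC1 that ATF4 and hypoxia raise, had 125, 142, 63.1 and 174 CPM in mutants, against 62.5, 59.4, 68.3 and 81.1 CPM in controls. Mutant 3 was at the level of the controls and the other mutants were above them (log2 fold change 0.90, SE 0.28, unadjusted p = 0.0106). Stc2, a secreted glycoprotein induced through PERK, was at 6.23 ± 1.98 CPM in mutants and 2.21 ± 1.16 CPM in controls, with all mutants above all controls and log2 fold changes of 1.50 in all 8 and 1.19 in the 5.

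Markers and stress genes outside the ER were read beside these values. Acinar cells, like β-cells, secrete protein in bulk and carry much ER. Over all 8 libraries 13 of 13 acinar markers tested were lower in mutants, with a median log2 fold change of −3.66, as were 10 of 10 β-cell and 6 of 6 α-cell markers, with medians of −1.25 and −1.18. In the 5 libraries 12 of 13 acinar markers were higher, with a median of 0.86, and 6 of 6 α-cell markers were lower, with a median of −0.54, while 6 of 10 β-cell markers were higher (5 of 10 with total counts only), with a median of 0.04. Fibroblast markers were higher in 8 of 8 there as well, with a median of 1.27, and ductal markers in 5 of 6, with a median of 0.45. Fibroblast markers summed to 528 to 753 CPM in mutants, against 136 to 339 CPM in controls, with 8 of 8 higher, and ductal markers to 1060 to 2944 CPM in mutants, against 304 to 1609 CPM in controls. The groups were apart for the fibroblast sum and overlapped for the ductal sum, and the part of either in the values of the ER genes was not tested. Mutant 4, whose acinar sum of 928 CPM was the highest of the 6 libraries other than controls 2 and 3, had 2187 CPM of Hspa5, within the range of the other mutants. That sum was far below the 4094 and 12357 CPM of controls 2 and 3, and the part of acinar RNA was not tested. Of 12 cytosolic and mitochondrial heat shock genes 11 were lower over all 8 libraries (10 with total counts only), with a median of −0.40, and 8 of 12 in the 5, with a median of −0.07. Fos, an immediate early gene known to rise when cells are handled, was at 65.6, 71.6, 16.2 and 73.0 CPM in mutants, against 49.1, 125, 580 and 39.6 CPM in controls. The acinar sum, the β-cell sum, the α-cell sum and Fos were thus highest in control 3, as were most of the ER genes, and their part in the result was not tested.

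The genes with an ERSE or ERSE-II in their promoter were also compared by level. Over these 11 genes controls 2 and 3 were a median of 2.61 times controls 1 and 4 (1.16 for Canx to 5.24 for Derl3), and over the 17 genes with a promoter but neither match 1.93 times (0.80 for Trib3 to 3.76 for Dnajb9). Dnajb9, high in controls 2 and 3 without a match, and Canx, nearly level with one, show how far the ranges overlap. In the 5 libraries the 11 genes had log2 fold changes of 0.07 to 0.29, and the 17 genes of −0.35 to 0.46, around medians of 0.16 and 0.04. These are descriptions of chosen genes, with no test.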

How the data were processed

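Islets of Itgb1 mutant and control mice were profiled by RNA-seq in 4 libraries each (ribosomal RNA depletion, 50 bp single-end reads). The authors trimmed reads with Trimmomatic and FASTP, aligned them to mm10 with STAR and deposited raw counts per gene made by featureCounts at default parameters, which do not use strand, so reads of a gene and of an overlapping antisense gene cannot be told apart. GRCm38, edgeR, featureCounts and STAR are the names in the submitters' processing notes. The authors corrected for batches that the sources used here do not name. A deposited table of the authors' own comparison was not used here; it holds CPM, log2 fold changes, p-values and FDR.

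The 32 genes, the wider list and the markers were chosen with earlier results of these data known. Of 24091 genes, 15233 passed filterByExpr. Their counts were fitted with edgeR 4.0.16 (R 4.3.3, TMM factors, quasi-likelihood F-test) on genotype alone, and p-values were adjusted over all genes tested by the Benjamini-Hochberg method. The threshold for a call was 0.05 on the adjusted p, together with more than a 2-fold change, and counts at an unadjusted p below 0.05 are given beside the share of all genes. The SE is the log2 fold change divided by the square root of F. Levels are CPM after TMM, averaged per group. The named genes were the 3 sensors, Hspa5, Xbp1, Atf4, Ddit3, in each arm the 2 genes with the smallest p and the 1 with the largest log2 fold change, and the 4 genes of the wider list with the smallest p. Hsp90b1, Sdf2l1, Herpud1, Sec61b, Trib3 and Asns were added after their values were seen. In counts simulated from these libraries, the fit recovered 31% of genes changed 2-fold and 74% of those changed 4-fold.

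The smallest chi-square per gene between a pair of libraries was 27.93, so all 8 were counted as separate. Alternatives were DESeq2 1.42.0, RLE factors, total counts, other filters, a likelihood ratio test, the library division as a term or by subset, the replicate number as a block, and leaving out each library. Promoters were searched as plain letters on both strands.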

Additional observations from a re-analysis of the deposited data

How the results depend on the processing

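The count of genes lower in mutants at an unadjusted p below 0.05 was 6 and depended on the libraries and the model. It was 12 with DESeq2, 2 with a term for the library division, 2 in the 5 libraries of under 50 M counts, 3 there with total counts only, and 0 without controls 2 and 3, a setting chosen after seeing the data, as was that with total counts in the 5. Leaving out 1 library gave 0 to 21. The count of genes higher was 0, and became 9 in the 5 libraries, 9 there with total counts only, 3 without controls 2 and 3, and 0 to 0 with 1 library left out. The median of the chaperones moved from −0.56 to 0.21, 0.17 and 0.20 in those 3 settings, and that of the PERK arm from −0.44 to 0.029, −0.0039 and 0.024. Leaving out 1 library gave medians of −0.74 to −0.22 for chaperones, −0.37 to −0.18 for the IRE1 and ERAD arm and −0.59 to −0.17 for the PERK arm. The cause of these moves was not tested.

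Among genes with an unadjusted p below 0.05 over all 8 libraries or in the setting itself, the following changed sign. In the 5 libraries these were Hspa5 (0.092), Hsp90b1 (0.29), Pdia4 (0.23), Dnajb11 (0.19), Dnajc3 (0.21), Sdf2l1 (0.29), Hyou1 (0.23), Xbp1 (0.46), Dnajb9 (0.0054), Sec61b (0.34), Herpud1 (0.17), Derl3 (0.15) and Atf4 (0.22). With total counts only in the 5 they were Hspa5 (0.059), Hsp90b1 (0.25), Pdia4 (0.20), Dnajb11 (0.16), Dnajc3 (0.17), Sdf2l1 (0.26), Hyou1 (0.20), Xbp1 (0.43), Sec61b (0.31), Herpud1 (0.14), Derl3 (0.11) and Atf4 (0.19). Without controls 2 and 3 they were Hspa5 (0.14), Pdia4 (0.21), Dnajb9 (0.046), Sec61b (0.47), Herpud1 (0.18) and Atf4 (0.25).

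Deviations of same-numbered libraries from their group means correlated at 0.42, −0.01, 0.46 and 0.25 for numbers 1 to 4, and 3 of 4 mutants and 3 of 4 controls correlated best with their own number, a hint from the data and not the design, so the numbers were not taken as pairs. With the replicate number as a block, 2 genes were lower at an unadjusted p below 0.05 (Ddit3 and Derl2), against 7.40% of all genes tested, and the medians were −0.41 for chaperones, −0.24 for the IRE1 and ERAD arm and −0.37 for the PERK arm. RLE factors and the stricter count filter changed no gene's side of the threshold. The lowest count of any of the 32 genes was 232, and the SE of Hspa5 was 0.53 over all 8 libraries and 0.09 in the 5.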
